A study of Mus musculus with 6 samples.

Results

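The 33 genes described here are 3 hypoxia-inducible factor (HIF) alpha subunits with their partner and regulators, glucose and lactate transporters, glycolytic enzymes and other targets of the hypoxia response. They were chosen by a list of symbols from the 54429 genes of the deposited count table. By role they are 8 oxygen-sensing genes, 3 transporters, 16 glycolytic genes and 6 other hypoxia targets. Pdk1, a kinase of pyruvate dehydrogenase, is counted with the glycolytic genes. All 33 symbols were found in the table, and 31 passed the filter on low counts and were tested. Aldoc and Slc16a3 did not pass it.

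The cells were primary aortic endothelial cells (EC) of adult wild-type (WT) C57BL/6 mice, bought from a supplier and grown in culture. They received either a lentiviral vector that expresses Meis1 (Meis1-OE EC) or a control vector (YFP-CTRL EC), and both groups therefore carried a vector and its YFP reporter. After 48 h of transduction YFP+CD31+VEC+ cells were sorted at 72 h, grown to confluency and harvested, with 3 libraries per group. The comparison addresses which genes respond to Meis1, a homeobox transcription factor, in EC that are not hemogenic. The groups differ in the vector alone as far as the labels say, the cells are a purchased culture expanded after the sort, and nothing in the labels states that the replicates came from separate animals. The p-values thus measure the spread between these cultures.

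Cells with enough oxygen mark HIF alpha proteins for destruction. Prolyl hydroxylases, encoded by the Egln genes, hydroxylate the alpha subunit, and the Vhl protein then directs it to the proteasome. When oxygen is low the alpha subunit persists, pairs with Arnt and binds a short DNA motif at genes of glycolysis, glucose uptake, mitochondrial turnover and vessel growth. Endothelial cells rely heavily on glycolysis, and Epas1 (HIF-2 alpha) is a characteristic alpha subunit of endothelium. HIF alpha activity is set largely at the protein level, which mRNA counts do not show.

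Library totals ran from 34176592 to 47956569 counts. Meis1 was counted 135325 to 157828 times in the Meis1-OE libraries and 39 to 85 times in the YFP-CTRL libraries, a log2 fold change of 11.07 (adjusted p = 6.92e-06 from edgeR), with vector and endogenous reads not separated. The sum of 12 endothelial markers was 3799 to 4749 CPM (counts relative to library size, after TMM scaling) in Meis1-OE EC and 4678 to 6519 CPM in YFP-CTRL EC. Of these 12, 2 passed the test upward (Cldn5 and Vwf) and 1 downward (Tek), beside 4.14% and 2.73% of all genes tested. Cdh5 and Kdr also lay below all controls in every Meis1-OE library without passing. Their log2 fold changes were -0.70 and -1.23 (adjusted p = 0.0535 and 0.0504 from edgeR). Esam lay above all controls without passing (log2 fold change 0.37, adjusted p = 0.269 from edgeR). The 5 smooth muscle markers summed to 1.75 to 4.0 CPM in Meis1-OE EC. In YFP-CTRL EC they summed to 0.559, 2.40 and 20.9 CPM, the last in library C. Of these markers 1, Des, passed upward on low counts, with 18 to 24 in Meis1-OE EC and 0 to 2 in YFP-CTRL EC. The 6 fibroblast markers summed to 11.9 to 12.0 against 16.1 to 49.5 CPM, nearly all from Pdgfra, with Lum at 0 in every library. The 6 macrophage markers summed to at most 0.881 CPM, with C1qa, C1qb, Tyrobp and Adgre1 at 0. The libraries of YFP-CTRL EC were unlike each other in proliferation. A score over 15 proliferation genes, the mean of log2(CPM + 1), was 4.01 in library A, 5.26 in library B and 6.48 in library C of YFP-CTRL EC, and 6.49 to 6.54 in Meis1-OE EC. YFP-CTRL library C thus stood at the Meis1-OE level, and the genes whose call it moves are given with and without it. In a fit with this score as a covariate, the slope rests almost only on the YFP-CTRL libraries, because Meis1-OE EC hardly vary in it. Such a fit cannot separate proliferation from other differences between those libraries. Values of single libraries are listed in the order A, B, C within a group.

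Among the 31 genes tested, Epas1, Pdk1 and Bnip3 rose in Meis1-OE EC and 0 genes fell, by edgeR's quasi-likelihood test at a Benjamini-Hochberg adjusted p under 0.05. Among all 16065 genes tested, 4.14% passed upward and 2.73% downward. At an unadjusted p under 0.05, 7 of the 31 were higher and 5 lower, beside 12.8% and 13.4% of all genes tested. DESeq2, which tested 32 of the genes with Aldoc among them, called 4 higher and 3 lower where it called 6.18% and 6.13% of all genes. The median log2 fold change of the 31 genes was -0.0061, beside 0.010 for all genes tested, and 14 values were positive and 17 negative. All Meis1-OE libraries lay above all YFP-CTRL libraries for 9 of the genes and below them for 6, beside 17.2% and 15.9% of all genes tested. Values of both signs were found in each role except transport, where both tested genes were negative. Scaled by library totals alone, the median of all genes shifted to 0.15 and 85.4% of the calls over all genes were upward, against 60.3% with TMM. Egln3 joined the 3 genes called upward on that scale, which called 6.52% of all genes upward and 1.11% downward.

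**Figure D1:**
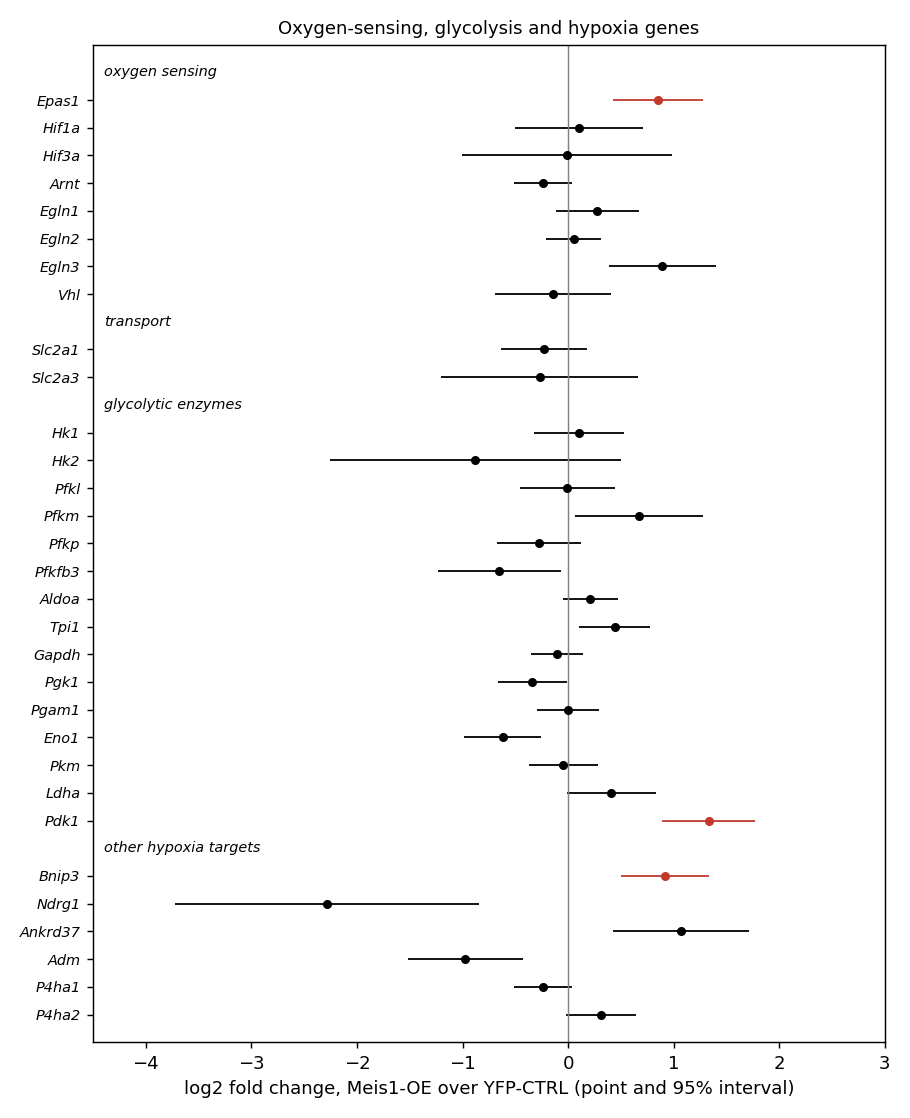
The points are log2 fold changes of the 31 tested genes, Meis1-OE EC over YFP-CTRL EC, and the lines are 95% confidence intervals from edgeR with 3 libraries per group. Epas1, Pdk1 and Bnip3, in red, had an adjusted p under 0.05, and the widest intervals were those of Ndrg1, Hk2 and Hif3a.

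Epas1 encodes an alpha subunit of the hypoxia-inducible factors. In the RefSeq annotation of GRCm38.p6, the assembly behind the mm10 build named in the labels, it lies at chr17:86753864-86833410, Pdk1 at chr2:71873215-71903858 and Bnip3 at chr7:138890836-138909506. It was at 363, 446 and 469.9 CPM in Meis1-OE EC and at 189, 231 and 289.5 CPM in YFP-CTRL EC. The lowest Meis1-OE library lay above the highest YFP-CTRL library. Its mean with SD was 426 ± 56.2 CPM after Meis1 and 236 ± 50.7 CPM in the controls, from 3 libraries each, and its log2 fold change was 0.85 (SE 0.18, adjusted p = 0.0389 from edgeR). The call was lost without YFP-CTRL library B (adjusted p = 0.132) and without Meis1-OE library A, B or C (0.0776, 0.178 and 0.177, all from edgeR), where the fold change stayed between 0.78 and 0.96. Those fits called 0.701% to 2.02% of all genes upward, beside 4.14% with all libraries. In a fit with proliferation as a covariate the log2 fold change was 0.56 and the adjusted p from edgeR was 0.0909. In bulk RNA, a change in the share of cells that use a gene and a change in RNA per cell cannot be told apart.

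Hif1a, the other main alpha subunit, was at 585, 763 and 793 CPM in Meis1-OE EC and at 772, 805 and 415 CPM in YFP-CTRL EC. The groups overlapped, with YFP-CTRL library C the lowest of the 6. Its log2 fold change was 0.10 with a 95% interval from -0.50 to 0.71 (adjusted p = 0.836 from edgeR), and it was -0.16 without YFP-CTRL library C. With the proliferation covariate it was 0.60 (adjusted p = 0.255 from edgeR). Hif3a, an alpha subunit with variants that oppose the other two, was at 0.799 to 1.71 CPM in all 6 libraries, and its log2 fold change of -0.01 took the other sign on library totals (0.13).

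Levels of the 3 alpha subunits were set side by side per kilobase of exon. On that scale Hif1a was at 121 ± 19.0 and Epas1 at 80.3 ± 10.6 CPM per kilobase in Meis1-OE EC, and Hif1a at 113 ± 36.7 and Epas1 at 44.5 ± 9.55 CPM per kilobase in YFP-CTRL EC (SD, n = 3). Epas1 made up 40.7%, 39.4% and 39.7% of the summed level of the alpha subunits after Meis1. In the controls its share was 21.3%, 24.1% and 43.6%. The Meis1-OE libraries were close to each other, while YFP-CTRL library C lay above all of them and libraries A and B well below. The share was therefore not separated between the groups although the Epas1 level was.

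Arnt, the subunit that pairs with the alpha subunits, was at 38.2 to 38.9 CPM in Meis1-OE EC and at 47.0, 49.6 and 40.1 CPM in YFP-CTRL EC. All Meis1-OE libraries lay below all YFP-CTRL libraries, with a log2 fold change of -0.24 (SE 0.12, adjusted p = 0.255 from edgeR), and of -0.33 (adjusted p = 0.0265) without YFP-CTRL library C. Vhl, which recognises hydroxylated alpha subunits, was at 9.21 to 11.8 CPM in Meis1-OE EC and overlapped the 8.27 to 15.0 CPM of YFP-CTRL EC.

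Of the 3 prolyl hydroxylases, Egln3 had the largest log2 fold change. Egln3, itself a target of HIF in many cells, was at 187, 241 and 263 CPM in Meis1-OE EC and at 97.0, 114 and 161 CPM in YFP-CTRL EC. The groups did not overlap, and the log2 fold change was 0.89 (SE 0.22, adjusted p = 0.0535 from edgeR). Egln3 missed the threshold there and passed it with DESeq2 (adjusted p = 0.00584) and without YFP-CTRL library C (log2 fold change 1.11, adjusted p = 0.00409 from edgeR). With the proliferation covariate its log2 fold change was 0.55 (adjusted p = 0.150 from edgeR). Egln1, the main oxygen sensor among the 3 enzymes, was at 54.5 to 57.9 CPM against 36.0 to 56.0 CPM, and its log2 fold change was 0.28 (interval from -0.12 to 0.67), and with YFP-CTRL library C left out it was 0.43 (adjusted p = 0.0340 from edgeR). The log2 fold change of Egln2 was 0.05, with an interval from -0.20 to 0.31, so that a change of more than 0.31 lay outside its interval. Per kilobase of exon, Egln3 held 70.0% to 75.2% of the summed level of these enzymes in Meis1-OE EC and 56.6% to 66.2% in YFP-CTRL EC. It was the most abundant of them in each of the 6 libraries.

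**Figure D2:**
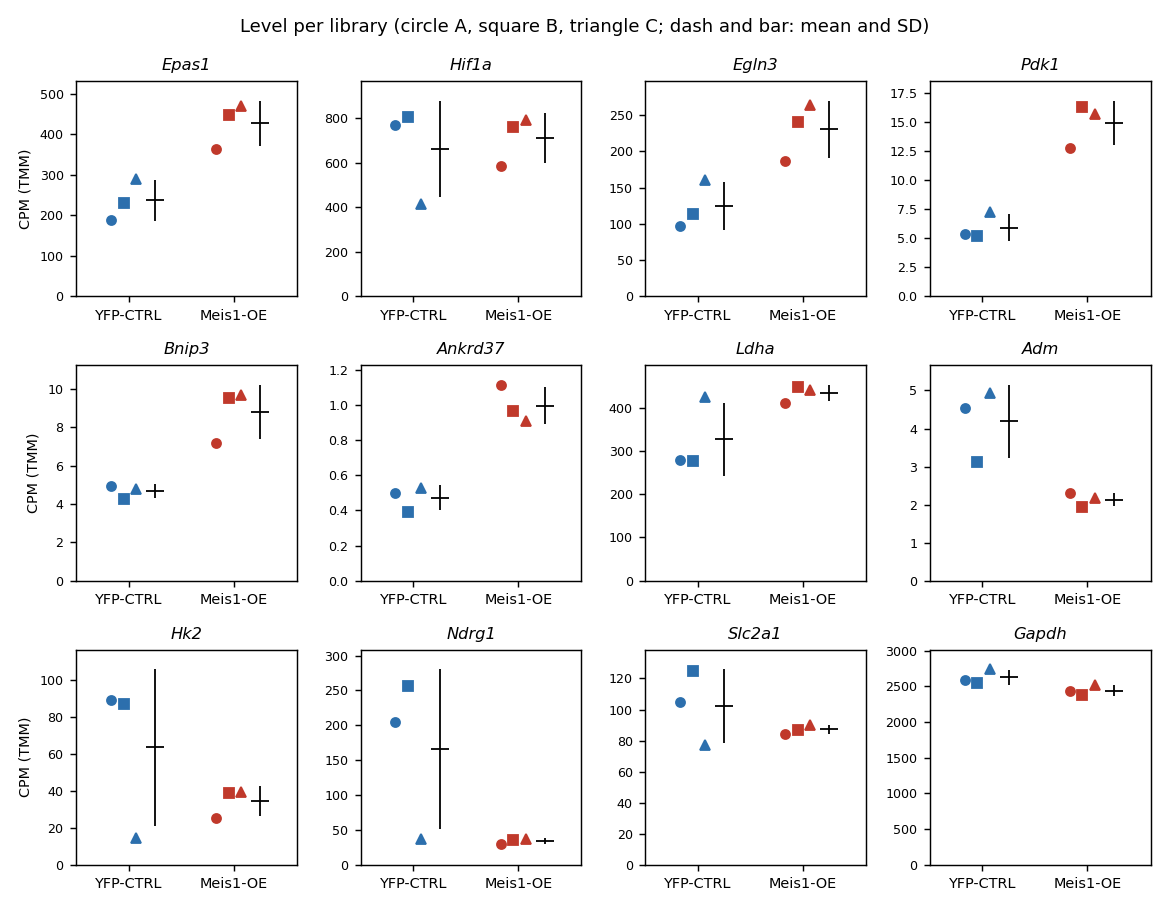
Levels of 12 of the genes in CPM after TMM scaling, on a linear axis from 0, in YFP-CTRL EC (blue) and Meis1-OE EC (red), with library A as a circle, B as a square and C as a triangle and the group mean and SD (n = 3) beside the points. The groups are separate for Epas1, Egln3, Pdk1, Bnip3, Ankrd37, Adm and Gapdh. The triangle of YFP-CTRL library C lies with Meis1-OE EC or below it for Ndrg1, Hk2, Slc2a1, Hif1a and Ldha.

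Glucose enters endothelial cells mainly through Slc2a1, the transporter GLUT1. Slc2a1 was at 84.3, 87.0 and 90.2 CPM in Meis1-OE EC and at 105, 125 and 77.1 CPM in YFP-CTRL EC. YFP-CTRL library C was the lowest of the 6 and libraries A and B the highest, and the log2 fold change was -0.23 with an interval from -0.64 to 0.18 (adjusted p = 0.444 from edgeR). With YFP-CTRL library C left out it was -0.41 (adjusted p = 0.0288 from edgeR), and it was -0.052 without YFP-CTRL library B and 0.0014 with the proliferation covariate. Slc2a3, a second glucose transporter, had 8 to 18 counts per library. Slc16a3, which exports lactate, had 1 count in 1 YFP-CTRL library and 0 in the others, where a count of 0 allows up to 3 counts, so a difference was not detectable at this depth.

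The first steps of glycolysis are each shared by several isoforms. Hexokinases trap glucose in the cell by phosphorylation. Hk2 was at 25.4, 38.7 and 39.3 CPM in Meis1-OE EC and at 88.9, 86.6 and 14.6 CPM in YFP-CTRL EC. YFP-CTRL libraries A and B were the highest and library C the lowest of the 6. The log2 fold change of Hk2 was -0.88 (SE 0.59, adjusted p = 0.382 from edgeR) with all libraries and -1.36 (adjusted p = 0.00283) without YFP-CTRL library C. Hk1, the more abundant hexokinase per kilobase of exon in every library, was at 280.3 to 302 CPM in Meis1-OE EC and at 199, 284 and 328 CPM in YFP-CTRL EC. Hk2 held 11.5%, 16.1% and 15.7% of the summed hexokinase level per kilobase in Meis1-OE EC and 39.0%, 30.3% and 5.97% in YFP-CTRL EC. The share of Hk2 in YFP-CTRL library C was the lowest of the 6.

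Phosphofructokinase is the committed step of glycolysis, and 3 genes encode its isoforms. Pfkm was at 41.7, 43.7 and 46.9 CPM in Meis1-OE EC and at 18.2, 25.9 and 39.0 CPM in YFP-CTRL EC. These groups did not overlap, and the log2 fold change was 0.67 (SE 0.26, adjusted p = 0.156 from edgeR), with 0.98 (adjusted p = 0.00719) without YFP-CTRL library C. Pfkl and Pfkp overlapped between the groups, with log2 fold changes of -0.01 and -0.28, and that of Pfkl took the other sign on library totals (0.13). The Pfkfb enzymes set the level of an activator of phosphofructokinase. Pfkfb3, the form that supports glycolysis in sprouting endothelium, was at 17.0, 17.1 and 20.1 CPM in Meis1-OE EC and at 36.0, 31.3 and 18.1 CPM in YFP-CTRL EC. YFP-CTRL library C lay among the Meis1-OE libraries, and the log2 fold change was -0.65 (SE 0.25, adjusted p = 0.152 from edgeR), with -0.91 (adjusted p = 0.00236) without that library.

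The middle and lower steps had log2 fold changes of both signs. Aldoa, the aldolase of most tissues, had a log2 fold change of 0.21, while Aldoc, its brain-enriched relative, had 4 to 8 counts per library and was not tested. Tpi1, which interconverts the triose phosphates, was at 220 to 231 CPM in Meis1-OE EC and 147 to 202 CPM in YFP-CTRL EC, with a log2 fold change of 0.44 (SE 0.14, adjusted p = 0.112 from edgeR) and of 0.60 (adjusted p = 0.00313) without YFP-CTRL library C. The groups did not overlap for either Aldoa or Tpi1. Gapdh, the dehydrogenase often used as a reference gene, was at 2375 to 2516 CPM in Meis1-OE EC and at 2546 to 2739 CPM in YFP-CTRL EC. Its log2 fold change was -0.11 with an interval from -0.35 to 0.14, and it took the other sign on library totals (0.04). Gapdh was also the gene with the highest level per kilobase of exon among those with a known length.

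For Pgk1 and Eno1 all Meis1-OE libraries lay below all controls. Pgk1, which makes ATP in the step after Gapdh, was at 338 to 352 CPM against 355 to 490.3 CPM, with a log2 fold change of -0.34 (SE 0.14, adjusted p = 0.178 from edgeR) and of -0.48 (adjusted p = 0.00747) without YFP-CTRL library C. Eno1, the enolase of most tissues, was at 306, 254 and 267 CPM in Meis1-OE EC and at 492, 344 and 435 CPM in YFP-CTRL EC. For Eno1 the log2 fold change was -0.62 (SE 0.16, adjusted p = 0.0593 from edgeR), with -0.61 (adjusted p = 0.0335) without YFP-CTRL library C, and it was -0.54 (adjusted p = 0.0661) with the counts of Eno1b added. Eno1b is a near-identical copy with 9698 to 15029 counts per library, so how reads were divided between the copies is uncertain. Pgam1, a mutase with a copy named Pgam1-ps2 at 944 to 2185 counts, had a log2 fold change of -0.0041 (interval from -0.30 to 0.29), which was 0.13 on library totals. Pkm, which makes pyruvate, had one of -0.05, and 0.09 on library totals.

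Pyruvate is turned into lactate by Ldha or enters mitochondria. Ldha was at 413, 449 and 442 CPM in Meis1-OE EC and at 280.5, 277 and 425 CPM in YFP-CTRL EC. YFP-CTRL library C lay between Meis1-OE libraries A and B, and libraries A and B of YFP-CTRL EC lay below all others. For Ldha the log2 fold change was 0.41 (SE 0.18, adjusted p = 0.203 from edgeR), and it was 0.63 (adjusted p = 0.00308) without YFP-CTRL library C and 0.13 with the proliferation covariate.

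Pdk1, a kinase that shuts off pyruvate dehydrogenase and so keeps pyruvate out of mitochondrial oxidation, had the largest positive log2 fold change of the 31 genes. It was at 12.8, 16.3 and 15.7 CPM in Meis1-OE EC and at 5.39, 5.15 and 7.22 CPM in YFP-CTRL EC. The lowest Meis1-OE library lay well above the highest YFP-CTRL library, which was library C. The mean with SD was 14.9 ± 1.91 CPM against 5.92 ± 1.13 CPM, from 3 libraries each, and the fitted fold was 2.52, a log2 fold change of 1.33 (SE 0.19, adjusted p = 0.0110 from edgeR). Pdk1 alone among the 31 genes also passed with the proliferation score as a covariate (log2 fold change 1.13, adjusted p = 0.0311 from edgeR), a fit that called 2.6% of all genes upward and 2.16% downward. It missed the threshold without Meis1-OE library B or C or YFP-CTRL library B (adjusted p = 0.0745, 0.0673 and 0.0530 from edgeR). Those fits called 0.701% to 1.24% of all genes upward.

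Bnip3, a mitochondrial outer membrane protein that drives mitophagy, was at 7.20, 9.54 and 9.70 CPM in Meis1-OE EC and at 4.95, 4.24 and 4.78 CPM in YFP-CTRL EC. The 3 YFP-CTRL libraries, library C included, were close together and below all Meis1-OE libraries. The log2 fold change was 0.92 (SE 0.18, adjusted p = 0.0293 from edgeR), and it was 0.93 without YFP-CTRL library C. The call was lost without Meis1-OE library B or C or YFP-CTRL library B (adjusted p = 0.171, 0.157 and 0.0998 from edgeR) and in the fit with the proliferation covariate (0.0659). The log2 fold change stayed between 0.85 and 0.86 in the first 3 of these fits and was 0.95 with the covariate. The first 3 called 0.701% to 1.24% of all genes upward.

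The sequences before the listed start of 4 of these genes are shown because HIF binds the core ACGTG or GCGTG and because their levels were separate between the groups. Pdk1 and Bnip3 passed the test and hold the core, and Egln3 and Adm were added after their values were seen. Epas1 has no entry among the promoter windows used here. Sequences are from RefSeq, build GRCm38.p6, in the sense of the gene, with the core in capitals on either strand (CACGT and CACGC are its reverse complements). The stretches are chr2:71872974-71873214 on the plus strand for Pdk1, chr7:138909507-138909756 on the minus strand for Bnip3, chr12:54203875-54204124 on the minus strand for Egln3 and chr7:110627407-110627656 on the plus strand for Adm.
Pdk1: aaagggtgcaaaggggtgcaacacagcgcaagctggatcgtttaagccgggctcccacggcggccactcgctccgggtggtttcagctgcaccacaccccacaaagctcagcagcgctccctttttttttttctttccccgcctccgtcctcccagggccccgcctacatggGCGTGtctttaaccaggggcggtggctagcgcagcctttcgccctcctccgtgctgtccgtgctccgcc
Bnip3: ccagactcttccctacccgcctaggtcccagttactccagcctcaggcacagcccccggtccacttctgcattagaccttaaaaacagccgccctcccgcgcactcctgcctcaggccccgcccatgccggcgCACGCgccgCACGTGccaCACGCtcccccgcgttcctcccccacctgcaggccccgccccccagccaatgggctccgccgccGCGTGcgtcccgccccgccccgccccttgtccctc
Egln3: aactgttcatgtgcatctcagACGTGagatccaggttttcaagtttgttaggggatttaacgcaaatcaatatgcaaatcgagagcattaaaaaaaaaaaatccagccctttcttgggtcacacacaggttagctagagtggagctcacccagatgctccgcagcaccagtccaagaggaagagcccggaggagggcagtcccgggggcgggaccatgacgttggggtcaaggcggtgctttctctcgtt
Adm: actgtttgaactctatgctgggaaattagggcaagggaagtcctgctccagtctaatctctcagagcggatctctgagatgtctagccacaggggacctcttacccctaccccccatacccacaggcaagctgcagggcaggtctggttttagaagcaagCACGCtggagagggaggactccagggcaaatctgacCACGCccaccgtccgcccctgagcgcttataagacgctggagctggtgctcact
Pdk1 held 1 core, and Egln3 held 1 at its far end. Bnip3 held 5, counting CACGTG on both strands, and Adm held 2. In the 250 bases before the listed start, 25 of the 30 genes with a window (83.3%) held ACGTG or GCGTG on either strand. The share was 55.7% of 10394 windows of tested genes and 38.6% of 27025 windows in all. The genes were chosen in part as targets of the hypoxia response, so a share above all genes is no result of these libraries. The windows of Aldoa, Ankrd37, Gapdh, Hif1a, Ldha, Pfkp and Slc16a3 lie inside the annotated gene, and all of these but Aldoa held the core. Those of Arnt, Hk1, P4ha1, Pdk1 and Pfkfb3 lie partly inside it. The core was thus present before genes of both signs, Adm and Egln3 among them. TGACAG, a core bound by Meis factors, was in 3 of the 30 windows (10%) and in 13.6% of those of tested genes, and in none of the 4 shown. A match is a description of the letters and shows no binding.

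Ndrg1, a stress-responsive gene and a common marker of hypoxia, had the most negative log2 fold change of the 31 genes. It was at 29.2, 36.1 and 37.0 CPM in Meis1-OE EC and at 205, 256 and 36.7 CPM in YFP-CTRL EC. YFP-CTRL library C lay among the Meis1-OE libraries, far below the other two. The log2 fold change was -2.28 (SE 0.61, adjusted p = 0.0700 from edgeR) with all libraries and -2.77 (adjusted p = 0.000318) without YFP-CTRL library C. With the proliferation covariate it was -0.84 (adjusted p = 0.524 from edgeR). DESeq2 called Ndrg1 lower with all libraries, as it did Eno1 and Adm.

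Adm, which encodes the vasodilator peptide adrenomedullin, was at 2.30, 1.94 and 2.16 CPM in Meis1-OE EC and at 4.53, 3.11 and 4.93 CPM in YFP-CTRL EC. Here YFP-CTRL library C was the highest of the 6, and the groups did not overlap. Its log2 fold change was -0.97 (SE 0.23, adjusted p = 0.0519 from edgeR), with -0.85 (adjusted p = 0.0338) without YFP-CTRL library C. Ankrd37, a small hypoxia-induced ankyrin repeat protein, was at 0.907 to 1.12 CPM against 0.392 to 0.528 CPM. Its log2 fold change was 1.07 (SE 0.27, adjusted p = 0.0622 from edgeR), again without overlap, and 1.15 (adjusted p = 0.0377) without that library.

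P4ha1 and P4ha2, the catalytic subunits of collagen prolyl hydroxylase, had log2 fold changes of opposite sign. P4ha1 was at 57.8 to 64.8 CPM in Meis1-OE EC and 65.8 to 78.0 CPM in YFP-CTRL EC, and P4ha2 at 16.8 to 19.0 CPM against 12.2 to 15.3 CPM. Neither passed the test, with log2 fold changes of -0.24 and 0.31 (adjusted p = 0.241 and 0.207 from edgeR), and with YFP-CTRL library C left out P4ha1 was at -0.33 (adjusted p = 0.0280).

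YFP-CTRL library C was nearer to the Meis1-OE mean than to the mean of YFP-CTRL libraries A and B for 22 of the 31 genes, beside 60.9% of all genes tested. Without this library 9 of the genes rose and 9 fell, in a fit that called 16.5% of all genes upward and 15.2% downward. The 9 that rose were Epas1, Egln1, Egln3, Pfkm, Tpi1, Ldha, Pdk1, Bnip3 and Ankrd37, and the 9 that fell were Arnt, Slc2a1, Hk2, Pfkfb3, Pgk1, Eno1, Ndrg1, Adm and P4ha1. Their largest log2 fold changes were 1.49 for Pdk1 and -2.77 for Ndrg1. With YFP-CTRL libraries A and B as the remaining controls, oxygen-sensing and glycolytic genes thus went both ways. Among the former, Epas1, Egln1 and Egln3 were higher and Arnt was lower. Among the latter, Pfkm, Tpi1 and Ldha were higher, and Hk2, Pfkfb3, Pgk1 and Eno1 were lower. Pdk1, counted in that role though it acts on pyruvate dehydrogenase, was higher. It was the only gene of that role called with all libraries. The glucose transporter Slc2a1 was lower. Libraries A and B also had the lowest proliferation scores (4.01 and 5.26), and the part of proliferation in these differences was not tested. The covariate fit takes its slope almost only from the YFP-CTRL libraries, so it cannot separate proliferation from whatever else differs between them. In that fit the log2 fold change was -0.84 for Ndrg1, -0.10 for Pfkfb3, 0.18 for Pfkm, 0.13 for Ldha, 0.55 for Egln3, 0.56 for Epas1 and 0.67 for Hk2, each smaller than with all libraries alone or of the other sign. It was 1.13 for Pdk1, 0.95 for Bnip3, 1.03 for Ankrd37 and -1.04 for Adm, beside 1.33, 0.92, 1.07 and -0.97 without the covariate. For Hif1a it was larger, at 0.60 beside 0.10 without the covariate. Library C had the highest smooth muscle sum (20.9 CPM, of which 19.9 CPM was Acta2), whose part was not tested.

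**Figure D3:**
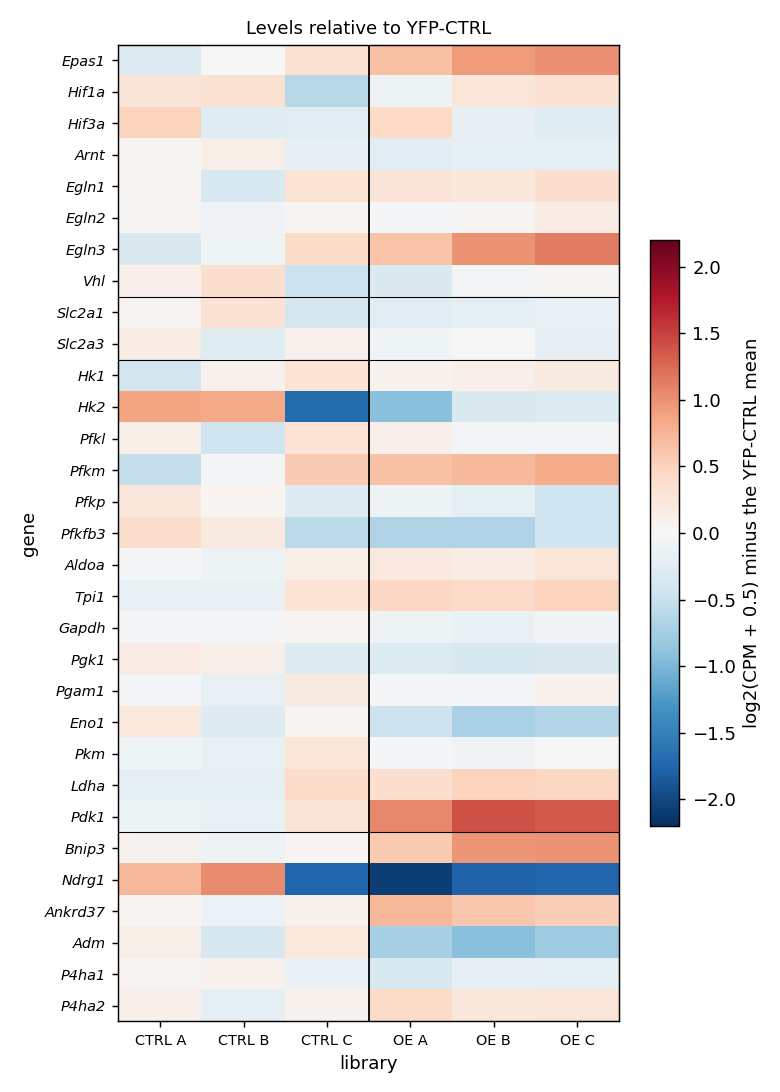
Each row is a tested gene and each column a library, coloured by log2(CPM + 0.5) minus the mean of the 3 YFP-CTRL libraries, with lines between the roles and between the groups. YFP-CTRL library C departs from libraries A and B toward the colours of Meis1-OE EC for Ndrg1, Hk2, Pfkfb3, Pgk1 and Ldha but not for Bnip3, Adm or Ankrd37.

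**Figure D4:**
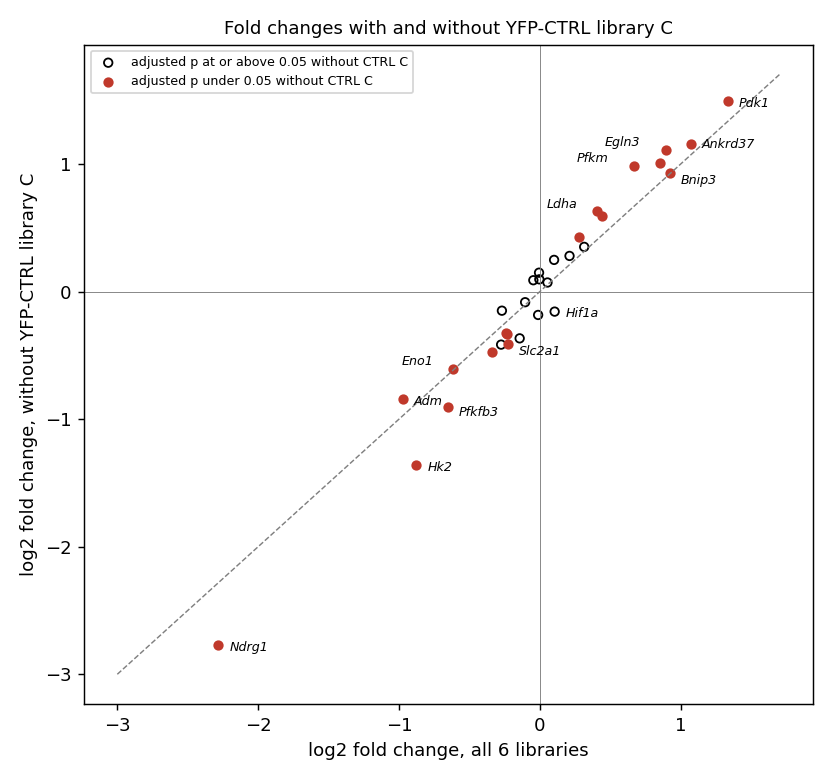
Log2 fold changes of the 31 genes with all 6 libraries (horizontal axis) and without YFP-CTRL library C (vertical axis), with the line of equal values dashed and genes with an adjusted p under 0.05 without that library filled. The 18 filled genes keep their sign, Ndrg1 and Hk2 lie below the line, and Hif1a crosses 0 from 0.10 to -0.16.

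A further 95 genes of the same pathways were listed by role, and 73 of them were tested. Of these, 6 rose and 2 fell by edgeR's test, beside 4.14% and 2.73% of all genes, and their median log2 fold change was -0.13. At an unadjusted p under 0.05 from edgeR, 11 of the 73 were higher and 20 lower, beside 12.8% and 13.4% of all genes tested. None of the 12 tested partners of the oxygen sensors rose and 1 fell. At the unadjusted threshold 0 of these 12 were higher and 7 lower, and their median log2 fold change was -0.35. Of 5 transport genes tested 1 rose, of 23 further enzymes 3 rose, and of 33 further hypoxia targets 2 rose and 1 fell.

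Enzymes of the same kinds as Pdk1 and Pfkfb3 were among those that rose, although Pfkfb3 itself had a log2 fold change of -0.65. Apart from Pfkfb4 and Pdk2, the further listed genes of these kinds did not pass or were not tested. Pfkfb4, another enzyme that makes or removes the phosphofructokinase activator, was at 1.53 to 1.76 CPM in Meis1-OE EC and 0.383 to 0.770 CPM in YFP-CTRL EC, with a log2 fold change of 1.6 (adjusted p = 0.0309 from edgeR). Pdk2, a second kinase of pyruvate dehydrogenase, was at 6.50 to 7.90 CPM against 3.09 to 4.05 CPM, with a log2 fold change of 1.0 (adjusted p = 0.0235 from edgeR). Slc2a8, a glucose transporter found mostly inside cells, was at 8.88 to 10.9 CPM against 3.50 to 5.24 CPM, with a log2 fold change of 1.25 (adjusted p = 0.0169 from edgeR). YFP-CTRL library C was the highest of its group for these 3 genes and still below all Meis1-OE libraries.

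Plod1, a collagen lysyl hydroxylase, rose by 0.69 on the log2 scale (adjusted p = 0.0312 from edgeR). Cited2, which competes with HIF alpha for its coactivators, was at 23.0 to 27.5 CPM in Meis1-OE EC and at 102, 54.3 and 45.6 CPM in YFP-CTRL EC. Cited2 fell by 1.40 and Jmjd6, a hydroxylase of lysine residues, fell by 0.55 on the log2 scale (adjusted p = 0.0377 and 0.0434 from edgeR). On library totals neither Cited2 nor Jmjd6 passed (adjusted p = 0.0578 and 0.103). In the fit with the proliferation covariate Slc2a8 and Cited2 passed with log2 fold changes of 0.97 and -0.72 (adjusted p = 0.0414 and 0.0481 from edgeR). The other 4 named here did not, with 1.16 for Pfkfb4, 0.81 for Pdk2, 0.60 for Plod1 and -0.38 for Jmjd6. Without YFP-CTRL library B, and without each Meis1-OE library, all 6 missed the threshold, with adjusted p-values up to 0.221. Those fits called at most 2.02% of all genes upward and 0.417% downward.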

How the data were processed

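RNA-seq libraries were made from ribodepleted RNA of 300000 cells each. The deposited values are the authors' estimated counts per gene, not normalized, in a table of 54429 gene symbols. The labels name the build mm10, and the study names DESeq2 for its own comparison. The aligner, counting tool, annotation and strand setting are not given in the sources used here, so overlapping and antisense genes are not separated. Columns carry letters while the labels number the replicates, so no column was tied to a number, and all 6 were used.

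Counts were rounded (24 of the 33 genes had a count that was not whole) and compared in R 4.3.3 with edgeR 4.0.16 (TMM, filterByExpr, quasi-likelihood test on all 16065 genes kept, two-sided, Benjamini-Hochberg adjustment over all of them, threshold 0.05). The biological coefficient of variation was 0.233. Standard errors came from the F statistic. With 3 libraries against 3 an exact permutation test cannot go below p = 0.1, so no gene was tested outside the model fitted to all genes. The script was tested on simulated data. DESeq2 1.42.0, other scalings, filters, thresholds, a proliferation covariate, a replicate block and libraries left out were alternatives. Floors cover counting error only. Exon lengths came from an annotation of build NCBIM37 and were found for 32 of the 33 genes, Pkm excepted. The genes and lists were chosen with earlier results of these data known. The text names Meis1, the 33 genes, and of the 95 further genes up to 5 past the threshold in each direction by size, of which 1 is not reported here. Protein sequences were not used here. Figures were drawn with matplotlib 3.10.9.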

Additional observations from a re-analysis of the deposited data

How the results depend on the processing

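Epas1, Pdk1 and Bnip3 had positive log2 fold changes under every alternative tried. Over all 31 genes and the alternatives, 362 of 435 values kept their sign and their side of the threshold, 13 lost the call, 25 gained one and 35 changed sign.

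The counts of genes called higher and lower over all genes were 1048 and 179 on library totals, 1124 and 1115 with DESeq2, 168 and 40 at an adjusted p under 0.01, and 1138 and 1073 under 0.1. With the proliferation covariate 417 were higher. Leaving out 1 library gave 115 to 2717 higher and 16 to 2498 lower. Of the 31 genes, 0 were higher at 0.01 (1.05% of all genes), 5 at 0.1 (7.08%), 1 with the covariate and 0 to 9 with 1 library left out. The number lower was 1 with DESeq2's size factors (Adm, 2.76% of all genes) and 1 of 33 tested without a filter (Ndrg1, 1.39%). It was 3 of 32 tested with DESeq2, 3 at 0.1 (6.68%) and 0 to 9 with 1 library left out. Of the 76 further pathway genes that DESeq2 tested, 10 were higher and 12 lower (6.18% and 6.13% of all genes). By edgeR, 0 and 0 of the 73 passed at 0.01 (1.05% and 0.249%) and 10 and 11 at 0.1 (7.08% and 6.68%). With the covariate 1 was higher and 4 lower (2.6% and 2.16%), and on library totals 0 were lower (1.11%). Leaving out 1 library gave 0 to 13 higher and 0 to 24 lower, the most without YFP-CTRL library C (16.5% and 15.2%). The highest counts came without YFP-CTRL library C, and 0 of the 31 genes passed without Meis1-OE library B, without Meis1-OE library C or without YFP-CTRL library B. In that order, those fits called 0.701%, 0.766% and 1.24% of all genes upward and 0.0975%, 0.109% and 0.401% downward. The cause was not tested, except that a stricter or looser threshold changes counts by construction.

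Same-lettered libraries deviated together with correlations of 0.256, 0.108 and 0.0613 across genes, and differently lettered ones with correlations from -0.257 to 0.201. These values do not settle whether the letters mark pairs. The labels state no pairing, so the letters were not taken as pairs in the main fit. With the letter as a replicate block, 544 genes were higher and 189 lower, of the 31 genes Epas1, Egln3 and Pdk1 were higher and none was lower (3.39% and 1.18% of all genes), and 2 further pathway genes were higher and 1 lower. The replicate block gave Pfkl 0.026 and Pgam1 0.0030.

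Signs changed only for genes that did not pass the test with all libraries. On library totals the log2 fold change was 0.036 for Gapdh, 0.13 for Hif3a, 0.13 for Pfkl, 0.13 for Pgam1 and 0.095 for Pkm. Without a filter it was 0.0021 for Hif3a, 0.0052 for Pfkl and 0.0032 for Pgam1, and with at least 10 counts in every library 0.0012, 0.0031 and 0.0053. With the covariate it was 0.58 for Hif3a, -0.24 for Hk1, 0.67 for Hk2, 0.023 for Pfkp, 0.0014 for Slc2a1 and 0.18 for Vhl. Leaving out 1 library gave -0.0014 to 0.096 for Egln2, -0.16 to 0.27 for Hif1a, -0.40 to 0.41 for Hif3a, -0.091 to 0.25 for Hk1, -0.19 to 0.15 for Pfkl, -0.075 to 0.095 for Pgam1, -0.12 to 0.088 for Pkm and -0.37 to 0.060 for Vhl. Summing copies of Eno1 and Pgam1, an alternative chosen after seeing the data, gave Pgam1 7.8e-05. Depth limited Slc16a3, Aldoc and Slc2a3, with at most 18 counts per library.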

Other observations

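Hypoxia targets outside the 33 genes, chosen here after their values were seen, had YFP-CTRL library C far below libraries A and B, as Ndrg1 and Hk2 did. Ero1l, an oxidase of protein folding in the endoplasmic reticulum, was at 38.0, 50.7 and 48.2 CPM in Meis1-OE EC and at 215, 243 and 33 CPM in YFP-CTRL EC. Vegfa, the main vascular growth factor, was at 41.0, 47.3 and 42.7 CPM against 146, 136 and 24.3 CPM. Gys1, a glycogen synthase, was at 44.6 to 48.2 CPM against 153, 168 and 50.9 CPM. Stc1 and Loxl2, also chosen after their values were seen, had library C as the highest control. Stc1, a secreted glycoprotein, was at 17.8 to 21.3 CPM in Meis1-OE EC and at 20.7, 48.4 and 52.5 CPM in YFP-CTRL EC, and Loxl2, a collagen crosslinking oxidase, at 4.49 to 5.80 CPM against 4.50, 6.86 and 13.6 CPM. Car9, a hypoxia-induced carbonic anhydrase, was under the filter on low counts. Its level was at most 0.0490 CPM in any library.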
